A study of Mus musculus with 2 samples.

Results

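The 9 genes described here encode extracellular matrix and matrix-binding proteins that monocytes and macrophages can make: *Thbs1*, *Fn1*, *Vcan*, *Tgfbi*, *Emilin2*, *Ecm1*, *Lgals1*, *Lgals3* and *Sparc*. They were taken by symbol, and all 9 were found among the 32285 genes of the series. The cells were sorted as positive for CD45, CD11b and CD64 from the infarct and border zones of mouse hearts 3 days after myocardial infarction, and were measured as single cells in droplets. Wild type (WT) and CD40 knockout hearts gave 1 library each, so the study has 2 libraries, named here the WT library and the KO-labelled library. The sources used here give neither the allele nor the strain, the age or the number of mice. No test between the groups was possible with a lone library on either side, and every difference below is between these libraries. Intervals are exact at 95% and hold counting error alone.

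After infarction the dying muscle is replaced by a provisional matrix of plasma and cell-made proteins, which fibroblasts later replace with collagen. Fibronectin, thrombospondin 1 and versican are parts of such provisional matrix. Monocytes and macrophages add matrix-binding proteins of their own, among them TGF-beta-induced protein, and galectins, which bind sugars on matrix and cell-surface proteins. SPARC is a collagen-binding protein known as a product of fibroblasts and endothelial cells.

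The WT library held 10624 barcodes and 139343516 UMIs (molecules counted once each), against 8146 barcodes and 90057108 UMIs in the KO-labelled library. Filters and doublet removal left 7191 and 7399 barcodes. A single cluster was made of 4382 KO-labelled barcodes and 32 from WT. With 1 library per group such a cluster may be that library and not a cell type, so it was kept apart, which left 7159 and 3017 barcodes in use. The libraries shared 23 of their deposited barcode sequences. Types were gated on marker genes that hold none of the 9 members. Macrophages made up 5260 barcodes in WT and 2250 in the other library, and fibroblasts, the reference for matrix production, 127 and 51. Fibroblasts, endothelial cells and lymphocytes do not carry the sorted markers together, so the ones read here are those that remained after the sort. Median depths were 11863 and 15562.5 UMIs in macrophages and 23149 and 29351 in fibroblasts. *Cd40*, the targeted gene, stood at 17.7 CPM (UMIs of a gene per 1000000 UMIs) in WT macrophages and at 16.4 CPM in the others, a log2 ratio of −0.11 (−0.24 to 0.02). Tags come from near the 3′ end of a transcript, and the sources used here do not say which part is deleted, so this level checks nothing about the label.

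The promoters of 3 members are shown because these genes stand for the patterns that follow: *Tgfbi* was higher in macrophages than in fibroblasts, *Vcan* was lower, and *Ecm1* was near equal. Each line gives the 150 bases before the annotated start in RefSeq, build GRCm38.p6, 5′ to 3′ on the gene's own strand. Capitals mark matches to the motifs searched on both strands, which did not overlap: the AP-1 site TGANTCA, the PU.1 core GAGGAA and the TATA box TATAAA.

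Tgfbi: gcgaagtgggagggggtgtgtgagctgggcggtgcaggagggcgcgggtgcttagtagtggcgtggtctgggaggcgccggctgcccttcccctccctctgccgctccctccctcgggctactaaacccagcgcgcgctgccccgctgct

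Vcan: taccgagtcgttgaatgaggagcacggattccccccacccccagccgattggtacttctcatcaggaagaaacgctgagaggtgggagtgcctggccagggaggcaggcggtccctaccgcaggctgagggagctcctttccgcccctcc

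Ecm1: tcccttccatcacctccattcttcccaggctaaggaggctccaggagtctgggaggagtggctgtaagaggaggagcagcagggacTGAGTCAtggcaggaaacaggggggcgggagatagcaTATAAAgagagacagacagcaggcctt

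The *Tgfbi* stretch lies at chr13:56609436-56609585 on the plus strand, the *Vcan* stretch at chr13:89742513-89742662 on the minus strand and the *Ecm1* stretch at chr3:95739570-95739719 on the minus strand. G and C made up 72.0% of the *Tgfbi* stretch, 63.3% of the *Vcan* stretch and 56.7% of the *Ecm1* stretch, and they held 13, 8 and 1 CpG pairs. The reference table held windows for 6 of the 9 members, from 250 bases before to 50 after a start. Only the *Ecm1* window held a match: an AP-1 site at −64 and a TATA box at −27 from the start. Among all 32851 windows of that length 7.81% held the AP-1 site, 28.3% the PU.1 core and 13.6% the TATA box. A match describes letters in this window, and no match says only that they are not in it.

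Set against fibroblasts, the members fell into 3 groups that were the same in both libraries. *Tgfbi*, *Emilin2* and *Lgals3* were at least 2-fold higher in macrophages. *Fn1*, *Vcan*, *Lgals1* and *Sparc* were at least 2-fold lower, and *Thbs1* and *Ecm1* lay between. In the WT library 15.9% of 8633 genes with a mean of at least 10 CPM were higher in macrophages by this measure and 25.5% were lower. The shares were 18.0% and 19.6% of 8539 genes in the KO-labelled library. The members' median log2 ratio was 0.27 in WT and 0.24 in the other library, beside −0.28 and 0.00 for all these genes. Each transcript gives 1 tag near its 3′ end, so CPM values need no scaling to gene length. Genes annotated on the other strand overlap *Thbs1*, *Fn1*, *Vcan* and *Emilin2*. The sources used here do not say whether strand was used in counting, so whether reads of such pairs were kept apart was not checked. Macrophages and fibroblasts of a library share its free RNA, which is measured further below.

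**Figure D1:**
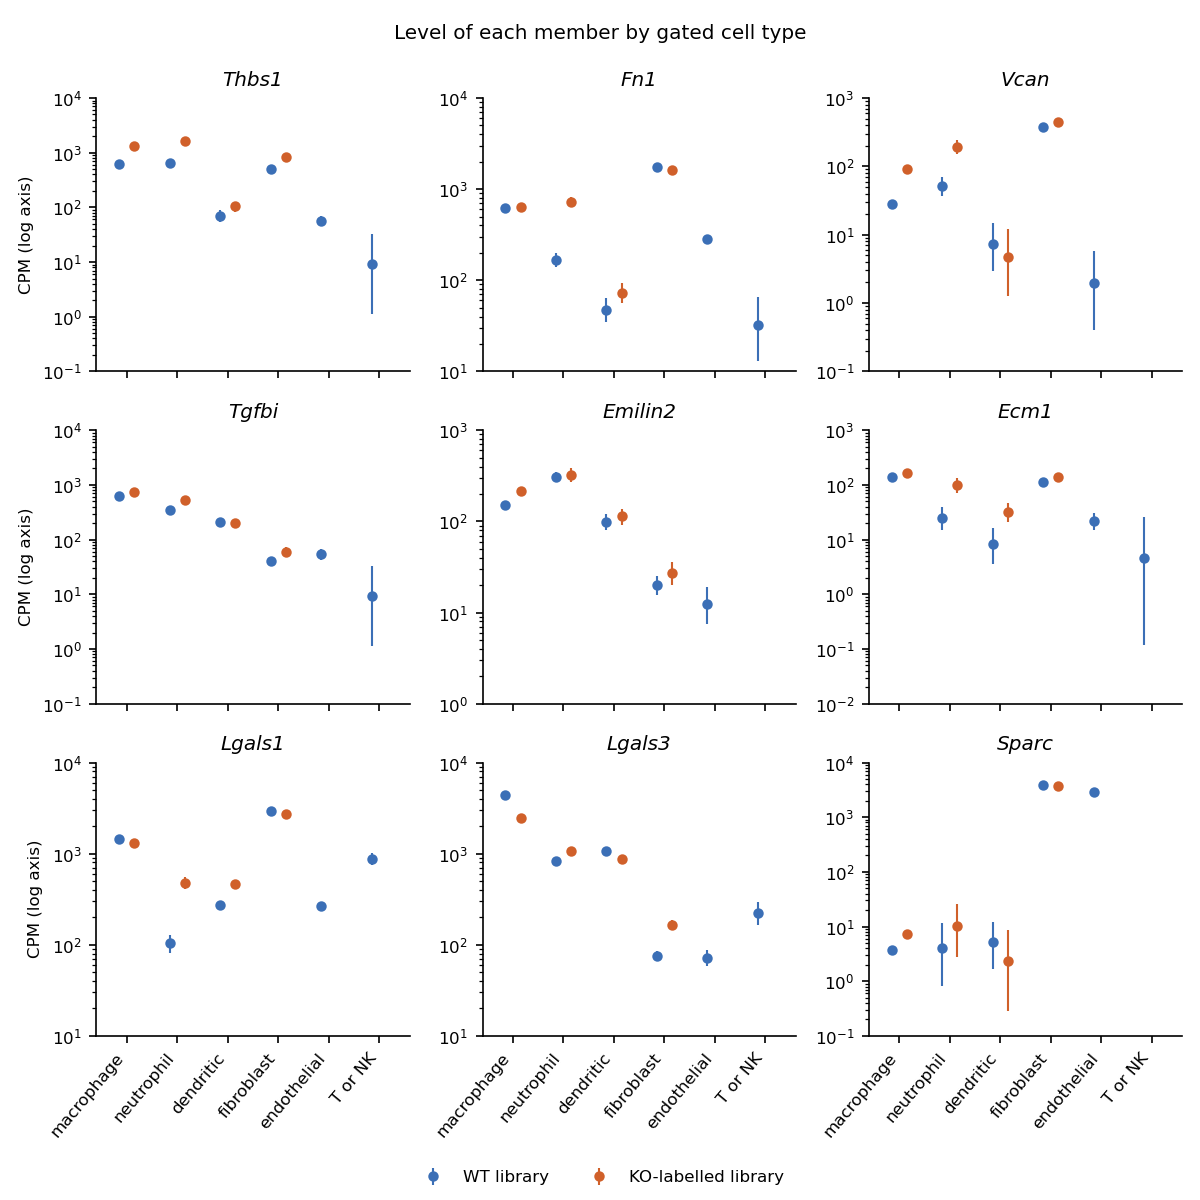
Level of each of the 9 members in CPM (log axis) in 6 gated cell types, with 1 point per library and exact 95% counting intervals. Types with fewer than 30 barcodes in a library and levels of 0 have no point. *Tgfbi* and *Lgals3* are highest in macrophages, and *Sparc* is above 2890 CPM in fibroblasts and WT endothelial cells and at 10.2 CPM or less elsewhere.

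*Thbs1* had a macrophage level somewhat above that of fibroblasts. It encodes thrombospondin 1, a secreted protein that binds CD36, CD47 and integrins and can activate latent TGF-beta (ENSMUSG00000040152, chr2:118111876-118127133, plus strand, 22 exons in the transcript Thbs1-201, the 201 transcript being used for each member). Macrophages held 611 CPM (606 to 617) in WT and 1298 CPM (1288 to 1309) in the KO-labelled library, against 494 CPM (471 to 519) and 849 CPM (806 to 893) in fibroblasts. The log2 ratio of macrophages over fibroblasts was 0.31 (0.24 to 0.38) in WT and 0.61 (0.54 to 0.69) in the other library. Neutrophils of the WT library stood at 644 CPM (588 to 704), an interval that overlaps the macrophage one. Neutrophil levels depended on how they were picked, and so did their order against macrophages. The WT level was 492 CPM (444 to 544) in the neutrophil cluster, below macrophages, and 729 CPM (682 to 778) with gate limits doubled, above them. In the KO-labelled library it was 1622 CPM by the gate, 1200 in the neutrophil cluster and 664 with gate limits halved. Dendritic cells had less, 69.1 and 104 CPM, and in WT 7.43 CPM with limits halved.

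*Fn1* encodes fibronectin, the adhesive protein that integrins on leukocytes and fibroblasts bind (ENSMUSG00000026193, chr1:71585520-71653200, minus strand, 46 exons). Fibroblasts led with 1740 CPM (1696 to 1785) in WT and 1633 CPM (1573 to 1693) in the KO-labelled library. Macrophages followed with 622 CPM (616 to 627) and 642 CPM (635 to 650), 2.80-fold and 2.54-fold lower. WT endothelial cells held 282 CPM and dendritic cells 47.4 and 73.2 CPM. Neutrophils by the gate held 167 and 730 CPM, but in the neutrophil cluster 61.2 and 72.1 CPM.

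*Vcan* encodes versican, a large chondroitin sulfate proteoglycan that binds hyaluronan (ENSMUSG00000021614, chr13:89655312-89742509, minus strand, 13 exons). Its order was fibroblasts first, with 372 CPM (352 to 393) in WT and 449 CPM (418 to 481) KO-labelled. Macrophages held 27.7 CPM (26.6 to 28.9) and 91.6 CPM (88.8 to 94.4), a log2 ratio to fibroblasts of −3.75 and −2.29. Neutrophils by the gate held 51.8 and 193 CPM, but the neutrophil cluster 5.21 CPM (4 UMIs) and 5.15 CPM (1 UMI). No UMI of *Vcan* was found in the pooled T, NK and B barcodes, 62 and 17 of them, which were pooled below the size limit after their values were seen.

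*Tgfbi*, *Emilin2* and *Ecm1* encode secreted glycoproteins. TGF-beta-induced protein binds collagens and integrins (ENSMUSG00000035493, chr13:56609523-56639562, plus strand, 17 exons). *Tgfbi* was highest in macrophages, with 616 CPM (610 to 621) in WT and 733 CPM (725 to 741) in the KO-labelled library. Neutrophils and then dendritic cells came next, with 349 and 207 CPM in WT, and fibroblasts held 39.9 CPM (33.4 to 47.3) and 60.2 CPM (49.3 to 72.8). Macrophages thus stood 15.4-fold and 12.2-fold above fibroblasts.

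*Emilin2* encodes an elastin microfibril interface protein (ENSMUSG00000024053, chr17:71252172-71311978, minus strand, 8 exons). Among the gated types it was the only member highest in neutrophils in both libraries by every way of picking them, at 277 to 331 CPM. The monocyte range of macrophages, described below, reached a similar level, 309 and 333 CPM. Macrophages held 150 CPM (148 to 153) in WT and 215 CPM (211 to 220) in the KO-labelled library, and fibroblasts 20.0 and 27.2 CPM. *Ecm1*, extracellular matrix protein 1 (ENSMUSG00000028108, chr3:95734147-95739569, minus strand, 11 exons), was highest in macrophages at 138 CPM (135 to 141) and 168 CPM (164 to 172). Fibroblasts came next at 114 CPM (103 to 126) and 142 CPM (125 to 161), and the intervals of the pair did not overlap. Dendritic cells held 8.25 and 31.9 CPM.

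The galectins *Lgals1* and *Lgals3* had opposite order against fibroblasts. *Lgals3* had the highest macrophage level of the set in both libraries, and *Lgals1* came next in WT, while in the KO-labelled library its interval overlapped that of *Thbs1*. *Lgals1* (ENSMUSG00000068220, chr15:78926725-78930465, plus strand, 4 exons) stood at 1432 CPM (1424 to 1441) in WT macrophages and at 1295 CPM (1285 to 1306) in the others, below 2939 and 2743 CPM in fibroblasts. Its lymphocyte level was high as well, 702 and 910 CPM in the pooled T, NK and B barcodes. *Lgals3* (ENSMUSG00000050335, chr14:47367751-47386160, plus strand, 6 exons) stood at 4399 CPM (4384 to 4413) in WT macrophages and at 2484 CPM (2470 to 2499) in those of the KO-labelled library. Fibroblasts held 76.2 and 165 CPM of it, so macrophages were 57.7-fold and 15.1-fold higher. The WT log2 ratio of 5.85 fell to 4.89 with gate limits doubled. Dendritic cells held 1080 and 880 CPM.

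*Sparc* set itself apart (ENSMUSG00000018593, chr11:55394500-55423183, minus strand, 10 exons). Fibroblasts held 3812 CPM (3746 to 3878) in WT and 3738 CPM (3649 to 3830) in the KO-labelled library, and WT endothelial cells 2899 CPM (2815 to 2985). Macrophages held 3.77 CPM (3.35 to 4.23) and 7.19 CPM (6.43 to 8.02), 1011-fold and 519.8-fold lower than fibroblasts. These levels are close to what fibroblast RNA in macrophage barcodes would give. The collagens *Col1a1*, *Col1a2* and *Col3a1* together stood in macrophages at 0.0773% (0.0722 to 0.0827) of their fibroblast level in WT and at 0.173% (0.163 to 0.184) in the KO-labelled library. The same shares of the fibroblast level of *Sparc* come to 2.95 and 6.48 CPM, or 78.1% and 90.1% of what was seen. For *Vcan* they come to 1.04% and 0.850% of the macrophage level, and for *Fn1* to 0.216% and 0.441%. The collagens used are markers of the fibroblast gate, and barcodes past both gates were set apart, so these shares may be too low. The set is named for products of monocytes and macrophages, and for *Sparc* these macrophages held little beyond the level scaled from the collagens.

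**Figure D2:**
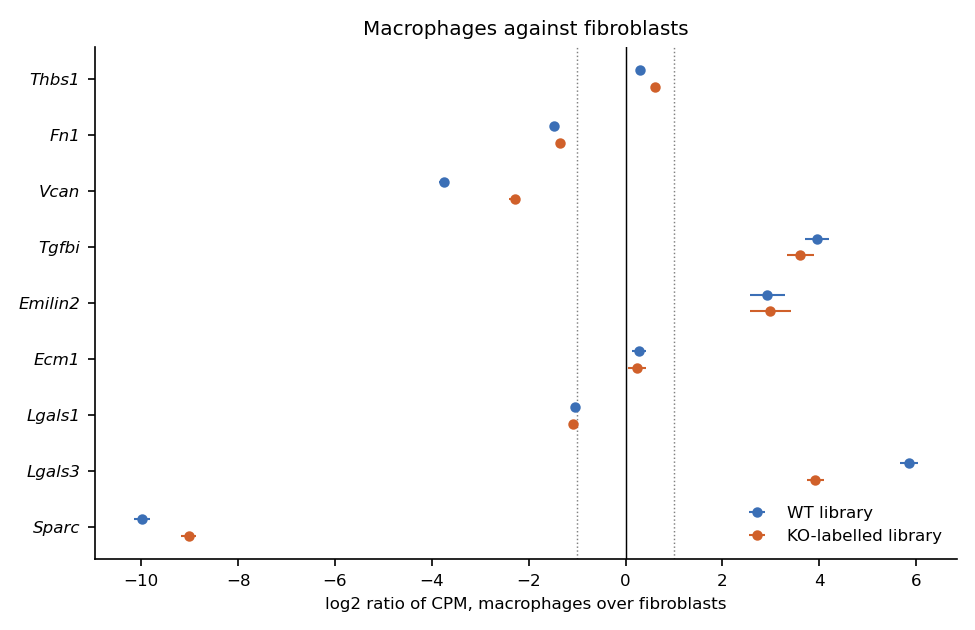
Log2 ratio of CPM in macrophages over fibroblasts for the 9 members, 1 point per library with exact 95% counting intervals; dotted lines mark 2-fold. *Tgfbi*, *Emilin2* and *Lgals3* lie to the right of both lines and *Fn1*, *Vcan*, *Lgals1* and *Sparc* to the left, in both libraries.

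Single barcodes differed in how many members they held. After each macrophage barcode was thinned to 3000 UMIs, which left out 251 and 99 shallower ones, the median barcode held a UMI of 4 members in WT and of 5 in the KO-labelled library. The 9 genes together made up 0.810% and 0.704% of macrophage UMIs. *Lgals3* was found in 98.5% and 98.0% of thinned barcodes (99.2% and 99.4% before thinning) and *Lgals1* in 92.6% and 90.6% (97.2% and 97.9%). *Thbs1* was found in 57.6% (56.2 to 58.9) and 79.0% (77.2 to 80.7), from 74.8% and 93.1% before thinning. *Vcan* was found in 6.41% (5.75 to 7.12) and 17.3% (15.8 to 19.0), from 17.5% and 40.3%. In pooled T, NK and B barcodes, with median depths of 3400.5 and 5230 UMIs, thinning left 42 and 16. There *Thbs1* was in 0 of 42 barcodes, which at a limit of 3 counts allows a share with a UMI of up to 7.14%, and in 37.5% (15.2 to 64.6) of 16. *Vcan* was in 0 of 42 and in 0 of 16, which by the same limit allows up to 7.14% and 18.8% of barcodes with a UMI. *Lgals3* was in 31.0% and 43.8% of these lymphocytes and *Lgals1* in 54.8% and 62.5%. The macrophage markers summed to 119 and 337 CPM in T or NK barcodes and to 253 and 141 CPM in B barcodes. In macrophages they summed to 7665 and 5783 CPM. How much of the lymphocyte shares is macrophage RNA was not tested.

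Macrophage states differed from each other in the members. A barcode was given a state where the markers of 1 list passed a limit, and the lists hold no member. The names stand for the lists and mark ranges, not types: 724 WT barcodes and 341 of the KO-labelled library lay within 1.3-fold of the lipid-associated limit. The resident-like range had 25 and 13 barcodes and is left out. *Thbs1* was high in the monocyte range (marked by *Ly6c2* and *Ccr2*), with 1371 CPM in WT and 2070 CPM in the KO-labelled library, and in the range marked by *Met* and *F13a1*, with 1927 and 2152 CPM. Cycling macrophages had the lowest level, 156 and 385 CPM. Barcodes past both the monocyte and the *Met* and *F13a1* limits, 68 in WT and 224 in the other library, held 2027 CPM (1922 to 2137) and 2716 CPM (2663 to 2770); this class was added after its values were seen.

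*Vcan* was likewise high in the monocyte and the *Met* and *F13a1* ranges, at a lower level. The monocyte range held 128 and 169 CPM, the *Met* and *F13a1* range 93.0 and 155 CPM, the lipid-associated range 14.4 and 31.4 CPM and cycling macrophages 13.9 and 14.2 CPM. In barcodes past both the monocyte and the *Met* and *F13a1* limits *Vcan* stood at 377 CPM (332 to 426) and 366 CPM (346 to 386), within the fibroblast interval in WT and below it in the KO-labelled library. *Fn1* was highest in the *Met* and *F13a1* range, 1538 and 929 CPM, against 453 to 876 CPM over the other 5 named states of both libraries.

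The galectins ran the other way. *Lgals3* was highest in the lipid-associated range (marked by *Spp1*, *Gpnmb*, *Fabp5* and *Trem2*), with 5470 CPM in WT and 3914 CPM in the KO-labelled library, against 1783 to 2757 CPM over the other 5 named states of both libraries. *Lgals1* was highest there too, 1639 and 1724 CPM, and lowest in the monocyte range, 776 and 957 CPM. *Tgfbi* had its highest level in the monocyte range, 1449 and 1077 CPM, and its lowest in the lipid-associated range, 440 and 450 CPM. *Emilin2* was highest in the monocyte range too, 309 and 333 CPM, and lowest in the lipid-associated range of WT (128 CPM) and in cycling macrophages of the other library (156 CPM). *Ecm1* was lowest in cycling macrophages, 70.9 and 104 CPM.

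**Figure D3:**
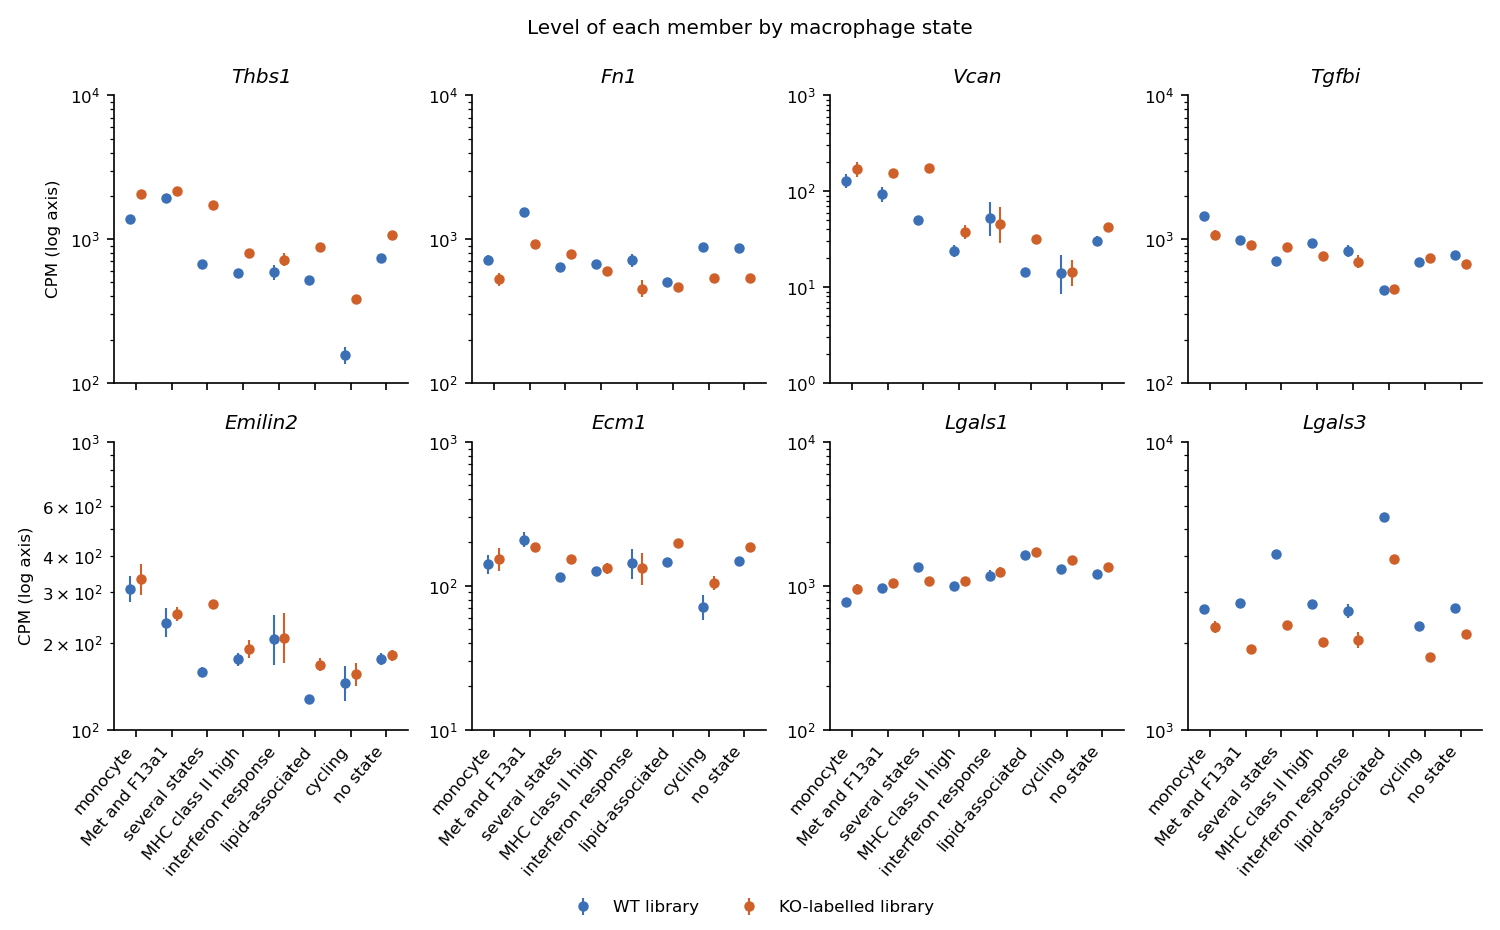
Level of 8 members in CPM (log axis) by macrophage state, with 1 point per library and exact 95% counting intervals; *Sparc* is left out because it was under 10 CPM in macrophages. *Thbs1* and *Vcan* are high in the monocyte and the *Met* and *F13a1* states, *Lgals3* is highest in the lipid-associated state.

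Between the libraries, *Thbs1* and *Vcan* were higher and *Lgals3* was lower in macrophages of the KO-labelled library. At a limit of 1.5-fold 2 of the 8 members with a mean of at least 10 CPM were higher and 1 was lower, against 8.75% and 3.34% of all 7585 such genes. *Thbs1* had a log2 ratio of 1.09 (1.07 to 1.10), *Vcan* of 1.72 (1.65 to 1.80) and *Lgals3* of −0.82 (−0.83 to −0.81). The other members lay between: *Emilin2* at 0.52, *Ecm1* at 0.29, *Tgfbi* at 0.25, *Fn1* at 0.05 and *Lgals1* at −0.14. The median over the 8 members was 0.27, and over all 7585 genes 0.09. *Sparc*, under the 10 CPM limit, had 0.93 (0.70 to 1.16), and its ratio turned to −0.21 once fibroblast RNA was subtracted by the collagens. These ratios leave out the single-library cluster kept apart. Its macrophage-gated KO-labelled barcodes held *Thbs1* at 874 CPM, *Vcan* at 35.9 CPM and *Lgals3* at 3648 CPM. Each was closer to WT macrophages (611, 27.7 and 4399 CPM) than to the KO-labelled macrophages in use (1298, 91.6 and 2484 CPM).

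The states took different shares of macrophages in the libraries. The lipid-associated range was 47.4% of macrophages in WT and 18.3% in the KO-labelled library, while the *Met* and *F13a1* range was 1.90% and 11.4%. *Spp1* alone gave 11000 of the 21930 CPM of the lipid-associated list in WT macrophages and 4938 of 8889 CPM in the others. Barcodes past several limits were 18.0% and 27.0%. Equal weight was then given to 8 classes: the 6 named states, barcodes past several limits and barcodes past no limit. By this the log2 ratio of *Vcan* moved from 1.72 to 0.72 and that of *Lgals3* from −0.82 to −0.45. That of *Thbs1* moved from 1.09 to 0.58, just under the 1.5-fold limit. *Fn1* moved from 0.05 to −0.44, and *Tgfbi* from 0.25 to −0.14. Barcodes past several limits, a mixture of states, had log2 ratios of 1.79 for *Vcan* and 1.37 for *Thbs1*. Those past no limit had 0.49 and 0.55. The share of each difference that belongs to the states and the share within them were not tested, and with 1 library per group neither can be told apart from the library.

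Within single states *Thbs1* was higher and *Lgals3* lower in each of the 6 named states with at least 30 barcodes in both libraries. Log2 ratios ran from 0.16 to 1.31 for *Thbs1* and from −0.53 to −0.21 for *Lgals3*. *Fn1* was lower in each of the 6, from −0.73 in the *Met* and *F13a1* range to −0.10 in the lipid-associated range, although its ratio over all macrophages was 0.05. In barcodes past several limits it was higher, at 0.30 (0.26 to 0.34). Among these, the ones past only the monocyte and the *Met* and *F13a1* limits had less *Fn1*, at −0.35 (−0.47 to −0.24). Barcodes past no limit also had less, at −0.71 (−0.76 to −0.66). *Vcan* was higher in 5 of the 6, and its interferon response value, −0.21 (−1.10 to 0.67), had an interval on both sides of 0. That of cycling macrophages, 0.03 (−0.77 to 0.88), did too.

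At the 1.5-fold limit *Thbs1* was called higher in the monocyte range (12.1% of all genes higher and 10.6% lower there) and with *Vcan* in the lipid-associated range (6.30% and 1.54%). *Vcan* was called higher and *Fn1* lower in the *Met* and *F13a1* range (9.12% and 4.94%). *Fn1* was the 1 member called in the interferon response range, as lower (23.3% higher and 15.3% lower). *Thbs1* was called higher and *Fn1* lower in cycling macrophages (11.5% and 6.98%), and *Vcan* higher in the MHC class II high range (7.96% and 5.68%). In all this made 6 calls higher and 3 lower, with 8 members measured in each of the 6 states. The shares of all genes in these states ran from 6.30% to 23.3% higher and from 1.54% to 15.3% lower. The total is therefore not read as particular to the members.

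**Figure D4:**
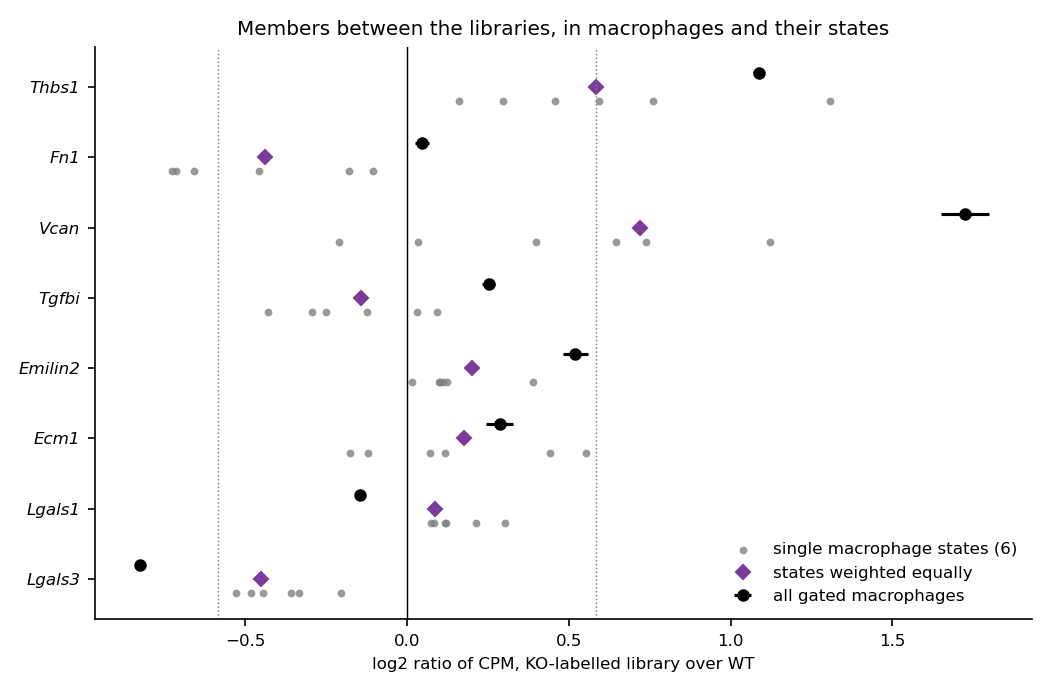
Log2 ratio of CPM, KO-labelled library over WT, for 8 members. Black points are all gated macrophages, with exact 95% counting intervals. Diamonds weight 8 classes equally: the 6 named states, barcodes past several limits and barcodes past no limit. Grey points are the 6 single states. Dotted lines mark 1.5-fold. The diamonds of *Thbs1* (0.58), *Vcan* (0.72) and *Lgals3* (−0.45) lie closer to 0 than the black points, and all 6 grey points of *Fn1* lie below 0.

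*Thbs1* is also stored by platelets, and neutrophil transcripts can enter macrophage barcodes, so their markers were read beside it. The 8 platelet markers summed to 56.9 CPM in WT macrophages and to 87.1 CPM in those of the KO-labelled library, of which *Ppbp* alone gave 55.1 and 83.6 CPM. All 8 were higher in CPM in the KO-labelled library, among them *Itga2b* (39 and 42 UMIs), *Clec1b* (40 and 46 UMIs) and *Gp6* (15 and 36 UMIs). The defining glycoprotein genes *Gp9* and *Gp1bb* were at or near 0, with 1 and 0 UMIs in WT and 1 UMI each in the other library. The 10 neutrophil markers summed to 183 and 299 CPM, and 8 of them were higher in the KO-labelled library. Of these sums *Mxd1* gave 71.2 and 138 CPM, *Il1r2* 19.7 and 42.7 CPM and *Trem1* 18.2 and 43.8 CPM. *Csf3r* (34.8 and 22.8 CPM) and *Cxcr2* (0.898 and 0.352 CPM) were lower. The part of either list's difference in the member ratios was not tested.

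In fibroblasts *Thbs1* was higher in the KO-labelled library as well, with a log2 ratio of 0.78 (0.68 to 0.88). *Lgals3* at 1.11 (0.86 to 1.36) and *Tgfbi* at 0.59 (0.21 to 0.97) passed 1.5-fold too, so that 3 of 9 members were higher and 0 were lower, against 10.7% and 16.4% of 8548 genes. *Fn1*, *Sparc* and *Lgals1* lay between −0.10 and −0.03 and *Vcan* at 0.27. Macrophage RNA in fibroblast barcodes differed between the libraries: *Lyz2*, *Tyrobp*, *Fcer1g* and *Ctss* stood at 1.44% (1.32 to 1.56) of their macrophage level in WT and at 6.81% (6.39 to 7.24) in the other library. These shares of the macrophage level of *Lgals3* come to 63.2 and 169 CPM, beside 76.2 and 165 CPM observed. For *Tgfbi* they come to 8.84 and 49.9 CPM, beside 39.9 and 60.2 CPM. Once they were subtracted, a step chosen after seeing the data, *Thbs1* kept a log2 ratio of 0.65, *Tgfbi* was at −1.60 and *Lgals3* had nothing left in the KO-labelled library.

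**Figure D5:**
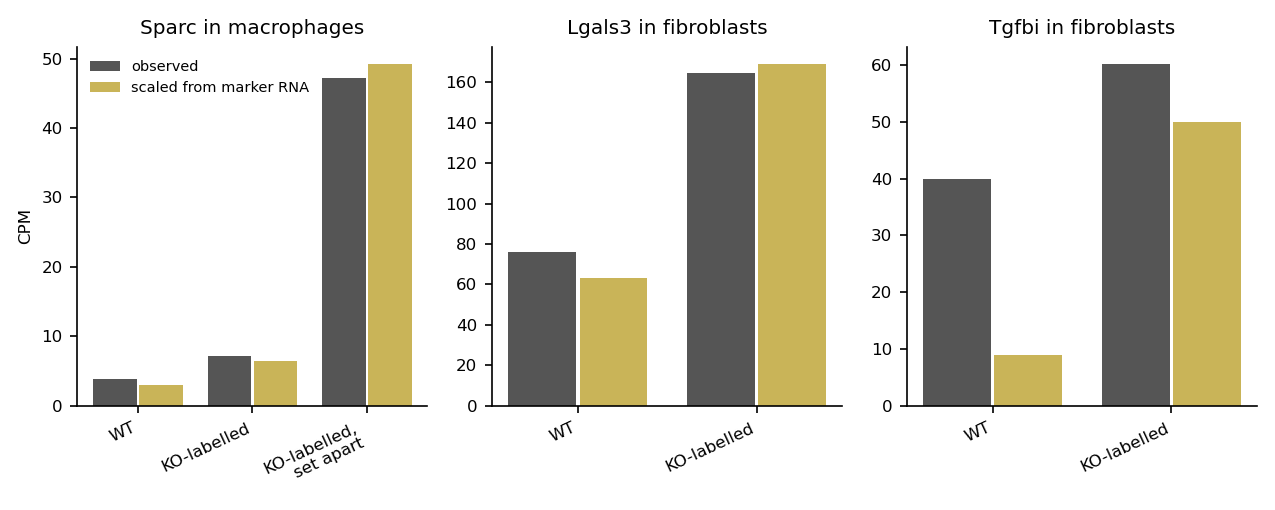
Observed CPM (dark bars) beside the CPM scaled from marker RNA of the other type (light bars): *Sparc* in macrophages, scaled by 3 collagens, and *Lgals3* and *Tgfbi* in fibroblasts, scaled by 4 myeloid genes. The bars labelled set apart are macrophage-gated barcodes of the single-library cluster, 47.2 CPM observed and 49.2 CPM scaled; *Lgals3* in fibroblasts has 165 and 169 CPM in the KO-labelled library.

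The pathways around the members were read in macrophages from lists of genes, each at the 1.5-fold limit between the libraries. Of all 7585 genes with a mean of at least 10 CPM, 8.75% were higher and 3.34% lower at this limit. List counts near these shares are not read as particular to a list. Of 15 collagens only *Col14a1* reached a mean of 10 CPM, with WT at 7.98 CPM and the KO-labelled library at 12.1 CPM. All 14 collagens measurable against WT fibroblasts were lower in macrophages. Among the listed collagens *Col1a1*, *Col1a2*, *Col3a1*, *Col5a1* and *Col6a1* were markers of the fibroblast gate, so for these the gate itself set the direction. Of 13 measured receptors for the members 1 was higher, the integrin subunit *Itga9* (71.3 and 138 CPM, log2 ratio 0.95). The 2 lower were the thrombospondin and lipid receptor *Cd36* (566 and 356 CPM, −0.67) and the integrin subunit *Itgb5* (209 and 132 CPM, −0.67). The other 10 lay between, with the receptor *Tlr2* at 0.56.

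Of 6 measured matricellular and adhesive glycoproteins 3 were lower: *Spp1* (osteopontin, a marker of the lipid-associated list) at −1.16, *Mfge8* (a bridge to dying cells) at −1.07 and *Emilin1* at −0.61. *Edil3*, also a bridge protein, was higher at 2.42, from 3.58 to 19.2 CPM, and *Spon1* stood at 0.50. Of 5 proteoglycan and hyaluronan genes 1 was higher, the syndecan *Sdc1* at 0.68, and *Srgn*, which encodes the granule proteoglycan serglycin, stood at 0.45. Among 5 galectin genes 1 was lower, *Lgals3* itself, and *Lgals3bp*, whose product binds galectin 3, stood at 0.50 (87.9 and 124 CPM). Of 5 cross-linking genes 1 was higher, the transglutaminase *F13a1* at 0.68, a marker of the *Met* and *F13a1* list, and *Tgm2* stood at 0.39.

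None of the 11 measured genes of TGF-beta ligands, latency and receptors passed 1.5-fold; they ran from *Tgfbr2* at −0.38 to *Smad3* at 0.49. Of 20 proteases and inhibitors 6 were higher and 4 lower. The gelatinase *Mmp9* was among the higher (7.93 and 28.5 CPM, 1.85). The lowest were the lysosomal proteases *Ctsl* (2240 and 967 CPM, −1.21) and *Ctss* (2162 and 1245 CPM, −0.80).

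Some genes resembled a member in level across 26 pairs of type or state and library, each with at least 30 barcodes; 8248 genes were compared by Pearson's r of log2(CPM + 10). The pairs share libraries, and the states share a type, so r is a description. *Tgfbi* was closest to *Csf1r*, *Fcgr2b* and *Clec4a2* (0.97, 0.97 and 0.96), *Lgals3* to *Cd68*, *Ctss* and *Lat2* (0.98 each) and *Emilin2* had *Lrrc25* and *Itgam* among its closest (0.97 each); *Csf1r* and *Cd68* were gate markers. *Sparc* was closest to *Rhoj*, *Dlc1* and *Ppic* (0.995, 0.995 and 0.994). *Thbs1* was closest to the metalloproteinase gene *Mmp19* (0.91), then *Por* (0.91) and *Slc31a1* (0.89), and *Vcan* to *Rhou*, *C3* and *Fosl1* (0.92, 0.89 and 0.86). *Fn1* was closest to *Cxcl1*, *Nt5dc2* and *Ccl2* (0.91, 0.90 and 0.88), *Ecm1* to *Ccl2*, *Lrp1* and *Entpd7* (0.94, 0.92 and 0.91) and *Lgals1* to *Fdx2*, *Timm13* and *Atp2a2* (0.87, 0.86 and 0.86). Among the members themselves the nearest pair was *Tgfbi* and *Emilin2* (0.94), and *Lgals3* and *Sparc* were the farthest apart.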

How the data were processed

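The authors deposited raw UMI counts for every gene in each barcode, produced by Cell Ranger 7.0.1 according to the files (per the file headers). STAR and the build mm10 appear in the submitters' processing notes. The kit was Chromium 3′ v3, per the labels' protocols. The sources used here do not say whether reads in introns counted. A barcode needed 1000 UMIs, 500 genes and no more than 10% mitochondrial UMIs. Scrublet in scanpy 1.11.5 marked 0 barcodes at its own threshold, so the highest scores were removed at 0.8% per 1000 barcodes, 903 from WT and 531 from the library labelled CD40 KO (the KO-labelled library). Leiden clustering left out the members. A barcode passed a gate with at least 3 markers and a list share above a limit, and barcodes past several gates were set apart, 958 WT and 360 KO-labelled ones. Fibroblast and mural gates together counted as fibroblast.

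The members, lists, gates and markers were chosen with earlier results of these data known. Counts were summed per type and library, scaled to CPM and given exact Poisson, binomial or conditional (Clopper-Pearson) intervals with numpy 2.4.6 and scipy 1.17.1, checked on simulated data. UMI counts are not replicates, so no test between groups was made. Ratios were counted at 1.5-fold between libraries and 2-fold between types, at a mean of 10 CPM. Named genes were the members, the 2 highest and 2 lowest measured genes of each list as space allowed, and the 3 genes most like each member; *Emilin1* was named after its value was seen. Some genes that this rule names are not reported here. Positions are those of GENCODE vM21, and the authors' own annotation may differ.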

Additional observations from a re-analysis of the deposited data

Results flagged for a closer look

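*Lgals3* differed in direction between cell types. Its log2 ratio of the KO-labelled library over WT was −0.82 in macrophages and 1.11 in fibroblasts. Both exceed 1.5-fold with intervals clear of 0, and the difference between them was not tested. The fibroblast values lay close to the level scaled from macrophage RNA in both libraries.

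Barcodes outside the comparisons also held a signal. In the single-library cluster of the KO-labelled library *Lgals1* stood at 3027 CPM (3002 to 3053), above 1432 CPM in WT macrophages. The 32 WT barcodes of the same cluster held 2216 CPM (2028 to 2416). *Sparc* stood there at 52.4 CPM (49.1 to 55.8), and the same collagens scaled to 56.9 CPM. The cluster's median depth was 3212.5 UMIs and its median mitochondrial share 5.15%, against 15562.5 UMIs and 2.57% in the macrophages in use. Whether these values belong to a cell state or to the handling of the library was not tested.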

How the results depend on the processing

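No paired analysis was possible because each group has 1 library, and leaving out a replicate was not possible either. The 3 groups of members against fibroblasts, 3 higher and 4 lower in each library, kept these counts with gate limits halved or doubled, without doublet removal and at a floor of 50 CPM. In the KO-labelled library 3 were lower with single-library clusters kept, where *Lgals1* stood at −0.82, and 4 were higher at 1.5-fold, where *Thbs1* joined. The fold against fibroblasts changed by over 1.5 times for *Lgals3* in WT (log2 ratio 5.85 to 4.89 with limits doubled). In the KO-labelled library it did so for *Tgfbi* (log2 ratio 3.61 to 4.40 with limits halved) and *Sparc* (−9.02 to −8.16 with single-library clusters kept). Between the libraries, 2 members were higher and 1 lower in macrophages. These counts became 1 and 0 with the 8 classes above weighted equally, and the lower count was 0 at a 2-fold limit. Calls within states fell from 6 to 2 higher and from 3 to 0 lower at 2-fold. In fibroblasts the 3 members higher became 1 at 2-fold, 1 with gate limits doubled and 1 with macrophage RNA subtracted, which also gave 1 lower. Over 14 alternatives the log2 ratio in macrophages ran from 0.58 to 1.13 for *Thbs1*, 0.72 to 1.75 for *Vcan*, −0.92 to −0.45 for *Lgals3*, −0.44 to 0.09 for *Fn1*, −0.14 to 0.28 for *Tgfbi* and −0.24 to 0.11 for *Lgals1*. *Sparc* turned to −0.21 with fibroblast RNA subtracted and reached 1.79 with single-library clusters kept. Scaling by the median gene shifted each ratio by 0.09. Addition of barcodes past the macrophage and neutrophil gates, subtraction in fibroblasts, neutrophil alternatives and the pooled lymphocytes were chosen after seeing the data. Types with few barcodes limit precision, with 51 fibroblasts in the KO-labelled library.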
